A study of Mus musculus with 162 samples.

Results

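The 8 genes described here act in the recruitment of monocytes and other leukocytes: the CC chemokines Ccl2, Ccl7, Ccl12, Ccl3, Ccl4 and Ccl5 and the receptors Ccr1 and Ccr2. They were taken by symbol from the 46078 Ensembl genes that each library lists, so they are 8 of 46078. RNA-seq counts of polyadenylated RNA came from adult male C57BL/6 mice that received MC903 at 0.2 mM every day (calcipotriol, a vitamin D analogue that induces a dermatitis resembling atopic dermatitis) in ethanol, or with ethanol alone. Skin was the treated cheek, trigeminal ganglia hold the sensory neurons of the face, and thoracic spinal cord came from mice treated on the rostral back. Wild-type mice with no injection gave skin at day 1 (hours after the first application, 4 ethanol and 4 MC903 libraries), day 2 (2 and 3), day 5 (3 and 3) and day 8 (6 and 5). At day 8, skin also came from wild-type mice injected daily with PBS (3 and 2) or with 250 µg of the aGr1 antibody (4 and 4), from TSLPR KO mice, which lack the receptor subunit for the epithelial cytokine TSLP encoded by Crlf2 (2 and 3), and from BLT1 KO mice, which lack the leukotriene B4 receptor encoded by Ltb4r1 (3 and 3). TSLPR KO skin at day 12 gave 3 and 4 libraries. Trigeminal ganglia came from uninjected wild type at day 1 (4 and 4), day 2 (2 and 3), day 5 (3 and 3) and day 8 (5 and 5), from aGr1-injected (4 and 4) and PBS-injected (3 and 4) wild type at day 8, and from TSLPR KO mice at day 8 (2 and 2) and day 12 (4 and 4). Spinal cord at day 8 came from uninjected (5 and 4), aGr1-injected (6 and 8) and PBS-injected (2 and 2) wild type. Wild-type day 12 was not used, which leaves 144 of 162 libraries. The aGr1 antibody (clone RB6-8C5) was given to deplete neutrophils and is sold as binding both Ly6G and Ly6C, and Ly6C is carried by inflammatory monocytes too. Both knockouts are constitutive, and the groups of different genotype or injection are not said to be littermates. The labels number the libraries of a group without saying whether each is a separate mouse, so p-values measure the spread between these libraries.

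Chemokines are small secreted proteins that guide leukocytes along a gradient through G protein-coupled receptors. Ccl2, Ccl7 and mouse Ccl12 are ligands of Ccr2, the receptor by which inflammatory monocytes leave the bone marrow and enter inflamed tissue. Ccl3 and Ccl5 bind Ccr1, Ccl4 is a close relative of Ccl3, and Ccl7 also binds Ccr1. Ccr1 is carried by monocytes and neutrophils, and Ccl5 is made largely by activated T cells and NK cells. On the mouse genome (GRCm38, GENCODE M21) all 6 ligand genes lie on chromosome 11. Ccl2 lies at chr11:82035571-82037453 on the plus strand, Ccl7 at chr11:82045712-82047525 on the plus strand and Ccl12 at chr11:82101845-82103400 on the plus strand. Further along, Ccl5 lies at chr11:83525778-83530518 on the minus strand, Ccl3 at chr11:83647844-83649355 on the minus strand and Ccl4 at chr11:83662584-83664683 on the plus strand. Both receptor genes lie on chromosome 9, with Ccr1 at chr9:123962124-123968692 on the minus strand and Ccr2 at chr9:124101950-124113557 on the plus strand. Each is protein coding, and reads were counted over its exons. An annotated gene on the opposite strand, Gm17268, spans Ccl2 without sharing an exon base and was at 0 cpm in every library used.

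The sequence just upstream of the start was available from RefSeq (GRCm38.p6) for 4 of the 8 members. The window of Ccr2 is not shown because it overlaps an annotated exon of that gene. The 3 shown stand for the strongest responder, a Ccr2 ligand and the receptor that moved with them. Each run gives the 250 bases before the start that RefSeq annotates, 5′ to 3′ on the gene's own strand, with capitals marking the letters TATAA found on either strand. Ccl3 is read from the minus strand of chr11:83649379-83649628, Ccl12 from the plus strand of chr11:82101595-82101844 and Ccr1 from the minus strand of chr9:123968693-123968942.
Ccl3: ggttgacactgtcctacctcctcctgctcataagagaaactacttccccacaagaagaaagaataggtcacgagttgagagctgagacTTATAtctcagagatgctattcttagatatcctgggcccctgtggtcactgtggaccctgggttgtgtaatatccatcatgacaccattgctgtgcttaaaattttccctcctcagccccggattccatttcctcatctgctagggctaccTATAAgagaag
Ccl12: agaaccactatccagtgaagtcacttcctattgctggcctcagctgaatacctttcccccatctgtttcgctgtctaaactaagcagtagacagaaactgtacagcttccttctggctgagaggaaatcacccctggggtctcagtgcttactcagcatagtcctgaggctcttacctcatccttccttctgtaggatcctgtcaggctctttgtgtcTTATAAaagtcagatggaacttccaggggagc
Ccr1: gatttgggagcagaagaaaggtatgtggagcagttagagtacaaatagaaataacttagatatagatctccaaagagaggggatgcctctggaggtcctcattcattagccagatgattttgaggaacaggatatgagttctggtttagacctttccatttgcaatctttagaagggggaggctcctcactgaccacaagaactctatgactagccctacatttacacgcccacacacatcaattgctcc
In Ccl12 the match on the plus strand begins at position -31 from the RefSeq start and a match on the other strand at -32, overlapping it. In Ccl3 a match begins at -11, and one on the other strand at -162. For Ccl3 the RefSeq start lies upstream of the GENCODE start given above, so its positions count from the RefSeq start. The Ccr1 window holds none. TATAA occurs on either strand in 22.8% of the 32851 RefSeq promoters of the same length, so a match is common. The letters GGGA, any 2 letters and TTCC of NF-kB sites (in 1.21% of all promoters), TGANTCA of AP-1 sites (6.75%) and TTGCNNAA of C/EBP sites (9.56%), searched on both strands, are not in these 3 windows.

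Library depth was 15931871 to 67342879 counts on genes over the 144 libraries, so 0.1 cpm (a library's counts of a gene scaled to a common total of counts on genes) stands for about 2 to 7 counts. Where a library held at most 3 counts of a gene, that gene was taken as not detectable in it. Crlf2 was at 0.0691 to 0.277 cpm in TSLPR KO skin at day 8 and at 0.405 to 1.34 cpm at day 12, against 2.24 to 15.4 cpm in wild-type skin. In TSLPR KO ganglia it was at 0 to 0.228 cpm at day 8 but at 0.907 to 2.06 cpm at day 12, inside the range of wild-type ganglia of day 5 (1.15 to 2.47 cpm) for part of the libraries. In trigeminal ganglia 1 library labelled wild type (uninjected, day 8, ethanol, cohort B replicate 2) had Crlf2 at 0.117 cpm where the other 4 of its group had at least 3.19 cpm, so it goes against its label. Without it 0 members passed the test in that comparison, as with it. Ltb4r1 in the libraries labelled BLT1 KO was at 2.33 to 3.7 cpm with ethanol and 10.6 to 15.2 cpm with MC903, lower than in uninjected wild type at day 8 (6.66 to 10.5 and 33.5 to 77.5 cpm) but not absent, and which part of the transcript the deletion removes was not checked. With ethanol its range overlapped that of aGr1-injected wild-type skin (2.52 to 6.33 cpm), while with MC903 it lay below aGr1-injected (17.6 to 26.3 cpm) and PBS-injected (22.1 to 25 cpm) wild type. The uninjected wild-type libraries of day 8 carry labels of 2 styles, called cohort A and cohort B, and the test includes a term for them. In cohort A skin 2 MC903 libraries carry the number 1 and 2 ethanol libraries the number 3, under different library names, and they are called library 1 and library 2 here. Whether these come from separate mice is not given, but their counts differed by more than sampling noise, with a chi-square per degree of freedom over genes of 81.1 for the MC903 pair and 152 for the ethanol pair, inside the range of the other pairs of cohort A skin (65.5 to 158). Keratinocyte, sensory neuron and spinal neuron markers were present in the skin, ganglion and cord libraries, respectively.

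With ethanol alone, skin held far more of the Ccr2 axis than of Ccl3 and Ccl4. Per kilobase of exon, the median level over the 30 ethanol skin libraries was 9.97 cpm for Ccl7, 6.93 for Ccr2, 2.51 for Ccl2, 1.75 for Ccl12, 1.02 for Ccl5, 0.929 for Ccr1, 0.277 for Ccl4 and 0.178 for Ccl3. Each pair of neighbours in that order overlapped: Ccl7, for example, ran from 3.38 to 44.5 cpm per kilobase and Ccr2 from 2.85 to 14.8. The ends did not, since the highest Ccl3 library (1 cpm per kilobase) lay below the lowest of Ccl7 and of Ccr2. The ganglion had lower levels. Over its 27 ethanol libraries the median was 1.84 cpm per kilobase for Ccl7, 1.37 for Ccl12, 0.979 for Ccr2 and 0.767 for Ccl2, followed by Ccl5 (0.548), Ccr1 (0.234), Ccl3 (0.145) and Ccl4 (0.0715). In the 13 ethanol spinal cord libraries Ccl12 came first with a median of 0.507 cpm per kilobase, then Ccr1 (0.319), Ccr2 (0.213), Ccl4 (0.207), Ccl7 (0.181), Ccl3 (0.137), Ccl2 (0.137) and Ccl5 (0.11). Neighbours overlapped in these tissues too. Levels across tissues are given without a test.

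Ccl3 and Ccl4, a pair of closely related inflammatory chemokines, had the steepest course in MC903-treated skin. They were near the limit of detection with ethanol, passed the test at day 5 and were 155-fold and 137-fold higher at day 8. At day 8 Ccl3 was at 0.0268 to 0.367 cpm with a median of 0.122 cpm in ethanol skin and at 6.46, 7.28, 13.2, 48.3 and 59.8 cpm in MC903 skin. All 5 MC903 libraries lay above all 6 ethanol libraries (log2 fold change 7.28, SE 0.63, edgeR adjusted p = 4.85e-06). The lowest MC903 library belonged to cohort B and the highest to cohort A, and both cohorts alone passed the test. Ccl4 was at 0.0805 to 0.459 cpm with a median of 0.157 cpm with ethanol and at 6.29, 8.22, 20.5, 51 and 72.5 cpm with MC903, again without overlap (log2 fold change 7.10, SE 0.65, edgeR adjusted p = 7.51e-06). In bulk skin, more cells that carry a transcript and more transcript per cell cannot be told apart.

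Earlier in the course the same pair was low. At day 1 Ccl3 was at 0.0456, 0.0869, 0.0902 and 0.092 cpm with ethanol, where every library was at or under 3 counts, and at 0, 0.0519, 0.131 and 0.785 cpm with MC903. A single MC903 library of day 1 stood apart from the other 3 in both genes. At day 2 Ccl4 was at 0.184 and 0.311 cpm with ethanol and 0.689, 0.755 and 0.989 cpm with MC903, and no gene in the whole table passed the test there. At day 5 Ccl3 was at 0.12, 0.181 and 0.394 cpm and 2.03, 2.17 and 2.87 cpm, and Ccl4 at 0.108, 0.281 and 0.394 cpm and 1.71, 2.83 and 3.27 cpm, in the same order. MC903 libraries were above all ethanol libraries for both (log2 fold change 3.21, SE 0.45, edgeR adjusted p = 0.00395 for Ccl3, log2 fold change 3.23, SE 0.45, edgeR adjusted p = 0.00378 for Ccl4). Between day 5 and day 8 the MC903 effect grew by 4.08 for Ccl3 and 3.87 for Ccl4 on the log2 scale, but these differences did not pass the test over all genes (edgeR adjusted p = 0.0633 and 0.0781, with 1.62% of all genes past it). For that difference 0 members passed by edgeR and 4 were at an unadjusted p under 0.05. Both passed without wild-type day 8 MC903 cohort A replicate 2 or cohort B replicate 1 (the latter with Ccl5), and Ccl5 passed without ethanol cohort A library 2 replicate 3.

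Ccr1, the receptor for Ccl3, Ccl5 and Ccl7, rose with the 2 ligands. Ethanol skin at day 8 held 2.35 to 5.72 cpm with a median of 3 cpm and MC903 skin 19.7, 19.8, 25.7, 32.8 and 62.7 cpm, without overlap (log2 fold change 3.27, SE 0.33, edgeR adjusted p = 1.77e-05). At day 5 it was at 1.84, 4.04 and 5.74 cpm with ethanol and 11.2, 15.7 and 28 cpm with MC903, also apart (log2 fold change 2.20, SE 0.40, edgeR adjusted p = 0.011). At day 2 the values were 1.92 and 2.04 cpm and 2.72, 5.18 and 7.36 cpm, apart but not past the test (edgeR adjusted p = 0.898). Of the 8 members, Ccr1 passed the test in every skin comparison from day 5 on, in all genotypes and injections.

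**Figure D1:**
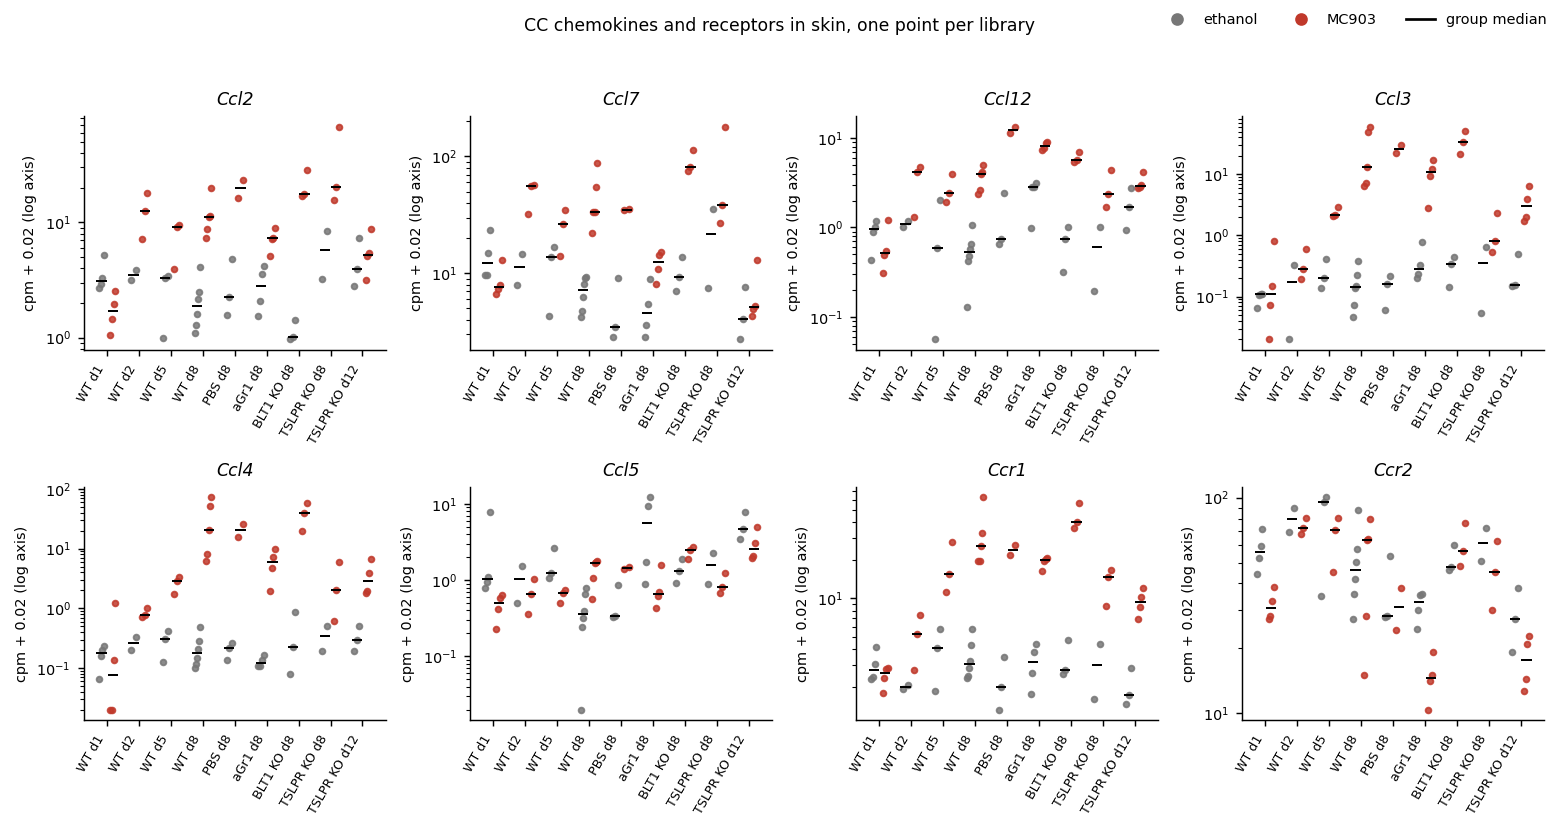
Expression of the 8 members in skin, 1 point per library, in cpm plus 0.02 on a log axis, for the 9 skin conditions, and grey points are ethanol, red points MC903 and bars group medians. Ccl3, Ccl4 and Ccr1 separate at day 8 in wild type, PBS-injected, aGr1-injected and BLT1 KO mice, while the Ccr2 groups overlap except at day 1 and in aGr1-injected mice.

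The 3 ligands of Ccr2 also rose at day 8, from a higher starting level and by less. Ccl2, the main monocyte attractant, was at 1.08 to 4.04 cpm with a median of 1.88 cpm with ethanol and 7.32, 8.65, 11.1, 11.2 and 20.0 cpm with MC903 (log2 fold change 2.60, SE 0.35, edgeR adjusted p = 0.00021). Ccl7 was at 4.19 to 9.34 cpm with a median of 7.14 cpm and 22, 33.4, 33.5, 54.5 and 88 cpm (log2 fold change 2.79, SE 0.33, edgeR adjusted p = 6.64e-05). Ccl12 was at 0.107 to 1.04 cpm with a median of 0.51 cpm and 2.33, 2.62, 3.97, 4.13 and 5.02 cpm (log2 fold change 2.75, SE 0.38, edgeR adjusted p = 0.000261). No MC903 library overlapped an ethanol library for any of the 3. In absolute level Ccl7 led: its MC903 median at day 8 was 41.8 cpm per kilobase, against 31.1 for Ccl4, 17.2 for Ccl3, 9.77 for Ccl2 and 7.39 for Ccl12.

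At day 1 Ccl2, alone among these Ccr2 ligands, passed the test in the opposite direction. Ccl2 was at 2.65, 2.92, 3.27 and 5.23 cpm with ethanol and 1.03, 1.41, 1.92 and 2.54 cpm with MC903, all 4 MC903 libraries below all 4 ethanol libraries, and passed the test as lower (log2 fold change -1.04, SE 0.30, edgeR adjusted p = 0.0466). That call held without MC903 replicate 4 or ethanol replicate 1 and was lost without any of the other 6 libraries (edgeR adjusted p = 0.0587 to 0.133). In 1 fit over days 1, 2, 5 and 8 it was lost as well (edgeR adjusted p = 0.218). Ccl7 was at 9.61, 9.64, 14.9 and 23.3 cpm and 6.66, 7.37, 7.96 and 12.8 cpm, with overlap, and did not pass (edgeR adjusted p = 0.0954), though it and Ccl5 passed as lower without ethanol replicate 1. By day 2 the values of MC903 skin lay above those of ethanol skin for Ccl2 (3.11 and 3.84 cpm against 7.19, 12.5 and 17.8 cpm) and for Ccl7 (7.95 and 14.7 cpm against 32.2, 56.3 and 56.4 cpm). With 2 ethanol libraries neither passed the main test, and both passed in DESeq2. At day 5 Ccl2 was at 0.976, 3.29 and 3.37 cpm and 3.9, 9.13 and 9.49 cpm, apart but not past the test (edgeR adjusted p = 0.055).

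Ccl5 and Ccr2 behaved otherwise. Ccl5 was at 0 to 0.778 cpm with a median of 0.337 cpm with ethanol and 0.547, 1.03, 1.64, 1.72 and 1.75 cpm with MC903 at day 8 (log2 fold change 1.85, SE 0.60, edgeR adjusted p = 0.04), with 1 MC903 library inside the ethanol range. The call was lost in cohort A alone (edgeR adjusted p = 0.092) and cohort B alone (0.298), and without any of 7 of the 11 libraries (0.0551 to 0.122), and it held without MC903 cohort B replicate 1 or ethanol cohort B replicate 3 or either cohort A ethanol library numbered 3. At days 1 and 5 its MC903 libraries were all below its ethanol libraries (0.478, 0.655 and 0.716 cpm against 1.05, 1.2 and 2.63 cpm at day 5), neither past the test (edgeR adjusted p = 0.0703 and 0.0525). Ccr2 was among the most abundant members and moved little. It was at 27.4 to 87.5 cpm with a median of 46.1 cpm with ethanol and 15.1, 28.1, 63.7, 64.3 and 79.5 cpm with MC903 at day 8 (log2 fold change 0.12, SE 0.31, edgeR adjusted p = 0.819), the MC903 and ethanol libraries overlapping over most of their range. At day 1 it was lower with MC903, at 27.3, 28.4, 33.2 and 38.4 cpm against 44.2, 52.5, 59.4 and 71.9 cpm, with no overlap (log2 fold change -0.87, SE 0.11, edgeR adjusted p = 0.00209).

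Counted over the 8 members in uninjected wild-type skin, 2 passed the test at day 1, both lower, where 13% of all genes tested passed in either direction. At day 2 it was 0 of 8, with 0% of all genes past the edgeR threshold and 1190 genes at an unadjusted p under 0.05. At day 5 it was 3, all higher, beside 14.9% of all genes, and at day 8 it was 7, all higher, beside 23.4%. Monocyte and macrophage markers moved too. Their list passed as lower for 8 of 12 genes at day 1 and as higher for 10 of 12 at day 8, when its summed level was 709 to 1169 cpm with ethanol and 1176 to 2441 cpm with MC903. The 9 neutrophil markers summed to 11.2 to 18.8 cpm and 74.3 to 383 cpm, with 6 higher, while Ly6g and Ngp had a level under 0.1 cpm with ethanol. All 4 mast cell markers were higher as well. The part of these cell types in the members' changes was not tested.

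**Figure D2:**
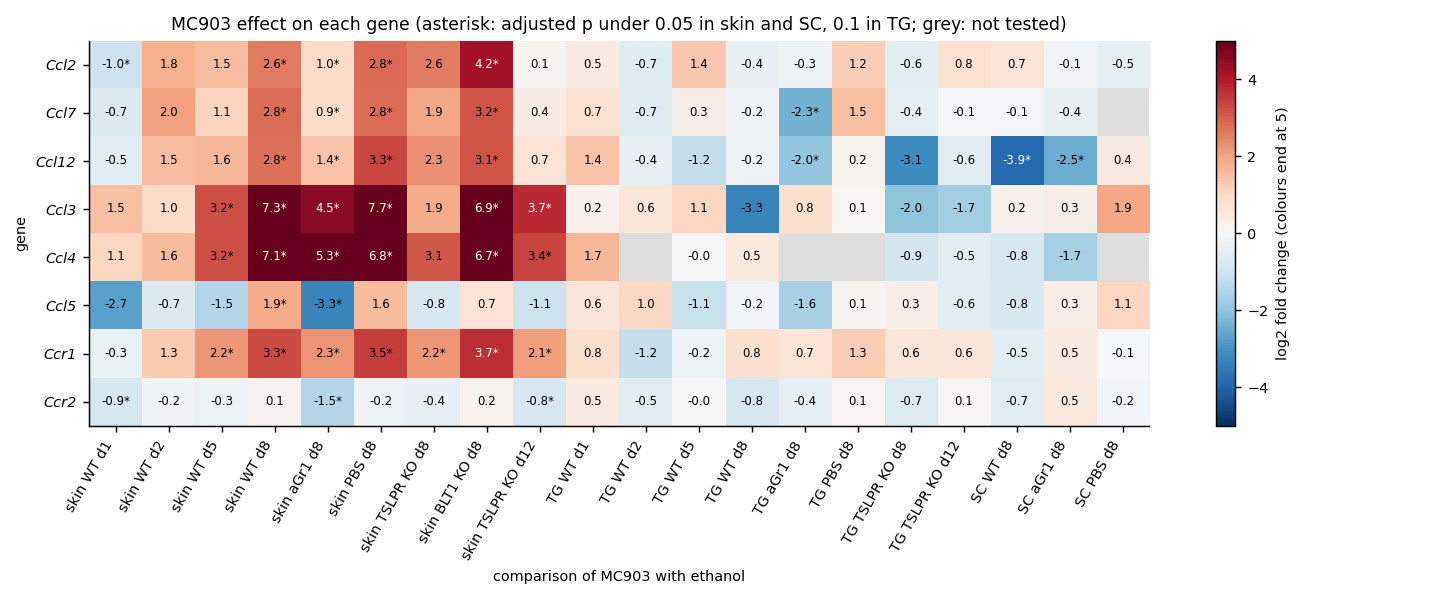
Fitted log2 fold change of MC903 over ethanol for each member (rows) in each of the 20 comparisons (columns), red for higher and blue for lower with MC903, with an asterisk where the adjusted p passed the threshold and grey where too few counts were present for a test. The skin columns from day 5 on are red for Ccl3, Ccl4 and Ccr1, and the ganglion and cord columns hold 4 asterisks, all on negative values.

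PBS-injected wild-type mice, the vehicle control of the antibody, had the same 3 Ccr2 ligands, Ccl3, Ccl4 and Ccr1 higher with MC903, 6 of 8 members beside 3.99% of all genes. Ccl3 was at 0.0395, 0.138 and 0.198 cpm with ethanol and 22.5 and 29.8 cpm with MC903 (log2 fold change 7.68, SE 0.44, edgeR adjusted p = 0.00135). Ccl12 reached its highest level of any skin group here, at 11.3 and 13.3 cpm against 0.632, 0.722 and 2.42 cpm (log2 fold change 3.33, SE 0.57, edgeR adjusted p = 0.0309). Ccl2 (1.55, 2.21 and 4.76 cpm against 16.1 and 23.3 cpm) and Ccl7 (2.82, 3.48 and 9.17 cpm against 35 and 35.2 cpm) were apart as well. The count fell to 2, Ccl3 and Ccl4, without MC903 replicate 2 or ethanol replicate 1, to 3 (with Ccr1) without MC903 replicate 1 or ethanol replicate 3, and was 7 (with Ccl5) without ethanol replicate 2. Without that library the log2 fold change was 3.43 for Ccl2, 3.51 for Ccl7 and 4.21 for Ccl12.

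BLT1 KO skin at day 8 showed the same 6 members higher, beside 28.6% of all genes. Ccl2 was at 0.945, 0.999 and 1.41 cpm with ethanol and 16.9, 17.6 and 28.8 cpm with MC903 (log2 fold change 4.21, SE 0.31, edgeR adjusted p = 4.35e-05). Ccl7 was at 7.01, 9.34 and 13.7 cpm and 75.3, 81.6 and 114.3 cpm (log2 fold change 3.15, SE 0.28, edgeR adjusted p = 9.63e-05), and Ccl4 at 0.0594, 0.204 and 0.865 cpm and 19.7, 39.7 and 58.6 cpm (log2 fold change 6.73, SE 0.80, edgeR adjusted p = 0.000398). None of these overlapped. Without ethanol replicate 2 the log2 fold change of Ccl4 was 8.27. Ccl3 (21.3, 33.3 and 51.4 cpm with MC903) and Ccr1 (35.6, 39.8 and 56 cpm) were in the range of wild-type MC903 skin, whereas the Ccr2 values with ethanol (46.3, 47.5 and 60.1 cpm) and MC903 (48.4, 56.6 and 76.5 cpm) overlapped. When the MC903 effects were compared with those of uninjected wild type, 0 members differed by edgeR (1 at an unadjusted p under 0.05), beside 6.95% of all genes. The nearest was Ccl2, whose effect was greater by 1.65 on the log2 scale (SE 0.55, edgeR adjusted p = 0.0817), and it passed without wild-type MC903 cohort A library 2 replicate 1.

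In aGr1-injected wild-type mice all 8 members passed the test, beside 32.6% of all genes, but in both directions. Ccl3 was at 0.183, 0.217, 0.309 and 0.768 cpm with ethanol and 2.77, 9.32, 12.2 and 17.4 cpm with MC903 (log2 fold change 4.51, SE 0.59, edgeR adjusted p = 0.000634). Ccl4 was at 0.087, 0.0904, 0.116 and 0.146 cpm and 1.94, 4.75, 7.24 and 9.98 cpm (log2 fold change 5.32, SE 0.60, edgeR adjusted p = 0.000263). Ccr1 was at 1.74, 2.55, 3.75 and 4.35 cpm and 16.3, 19.8, 20.6 and 20.7 cpm, Ccl12 at 0.957, 2.81, 2.82 and 3.12 cpm and 7.26, 7.63, 8.81 and 9.07 cpm. The MC903 libraries lay above the ethanol libraries for each of these 4. Ccl2 (1.52, 2.05, 3.52 and 4.17 cpm against 5.07, 7.19, 7.29 and 8.93 cpm) and Ccl7 (2.83, 3.59, 5.48 and 8.9 cpm against 8.04, 10.9, 14.2 and 15.3 cpm) were higher by 1.95 and 1.88 times (edgeR adjusted p = 0.0465 and 0.0469). The Ccl2 call held without MC903 replicate 1 or ethanol replicate 2 and was lost without any of the other 6 libraries (edgeR adjusted p = 0.0709 to 0.11), and the Ccl7 call held without MC903 replicate 1 or ethanol replicate 3 and was likewise lost without any of the other 6 (edgeR adjusted p = 0.0547 to 0.108). The receptor Ccr2 was lower with MC903, at 10.4, 14.1, 15 and 19.2 cpm against 24.7, 30.02, 35.5 and 35.8 cpm, without overlap (log2 fold change -1.47, SE 0.17, edgeR adjusted p = 0.000356).

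Ccl5 was lower with MC903 in aGr1-injected mice (log2 fold change -3.31, SE 0.85, edgeR adjusted p = 0.0166). Its 4 ethanol libraries were at 0.87, 1.72, 9.4 and 12.2 cpm and its 4 MC903 libraries at 0.411, 0.593, 0.685 and 1.54 cpm, so 2 ethanol libraries stood far above the rest and the other 2 lay near the MC903 range. The 9 T cell and NK cell markers summed to 78.9 and 53.9 cpm in the libraries with Ccl5 at 12.2 and 9.4 cpm, and to 19.4 and 9.83 cpm in the other 2, against 8.18 to 15.7 cpm with MC903. Of these markers 7 of 9 passed as lower (Cd3d, Cd3e, Cd3g, Cd8a, Trac, Nkg7 and Ncr1). The call for Ccl5 was lost without MC903 replicate 1 or 2 (edgeR adjusted p = 0.0532 and 0.0535). Monocyte and macrophage markers passed as higher for 8 of 12 and summed to 449.7 to 907 cpm with ethanol and 1372 to 1637 cpm with MC903. Neutrophil markers in aGr1-injected skin summed to 7.2 to 22.4 cpm with ethanol and 189.9 to 208 cpm with MC903, while Ly6g itself, part of the antibody's target, was at 0 cpm in all ethanol libraries and at most 0.0457 cpm with MC903. All 8 neutrophil markers with enough counts for a test passed as higher (S100a8, S100a9, Mmp8, Csf3r, Cxcr2, Retnlg, Camp and Ngp). In uninjected skin Cxcr2 was already higher at day 1 (0.62 on the log2 scale, edgeR adjusted p = 0.0257), while the other markers tested there did not pass. Whether other skin cells carry these transcripts was not tested. The study counted cells by flow cytometry and reported fewer neutrophils in aGr1-injected than in control MC903 skin at day 8. It did not find inflammatory monocytes raised in MC903 skin. In blood of MC903-treated mice their share differed between aGr1 and PBS on the first day sampled. By the study's test it did not at day 5 or day 8. Marker RNA was not compared with those counts. The part of these markers in the members' changes was not tested.

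The MC903 effect in aGr1-injected skin differed from that in uninjected skin for 3 members, beside 4.56% of all genes. The difference was -1.86 on the log2 scale for Ccl7 (SE 0.49, edgeR adjusted p = 0.0349), -5.14 for Ccl5 (SE 1.06, edgeR adjusted p = 0.0111) and -1.57 for Ccr2 (SE 0.42, edgeR adjusted p = 0.0384). For Ccl3 the difference was -2.74 (SE 0.98) and for Ccl2 -1.62 (SE 0.52), neither past the test (edgeR adjusted p = 0.118 and 0.0829). With the PBS-injected mice, which share the injection but number 3 and 2 libraries, in place of the uninjected ones, the differences were -1.85 for Ccl7, -4.83 for Ccl5 and -1.21 for Ccr2, and 0 of 8 passed (edgeR adjusted p = 0.286, 0.156 and 0.273). The groups of mice with and without injection may also differ in other ways, which cannot be told apart. Uninjected and aGr1 values came from separate libraries, so no control library was shared. The Ccl5 difference held without each single library, but the 2 aGr1 ethanol libraries high in Ccl5 (9.4 and 12.2 cpm) were not left out together. Both lay above every uninjected ethanol library, while the MC903 ranges of the aGr1 and uninjected groups overlapped. For the same difference the T and NK markers Cd3d, Cd4, Cd8a, Trac, Gzmb and Ncr1 also passed as lower (-2.55 to -6.66). Cd3e, Cd3g and Nkg7 did not pass, and the part of these markers was not tested. The Ccl7 call was lost without any of 8 of the 19 (edgeR adjusted p = 0.0553 to 0.0883). In the uninjected group these were ethanol cohort A replicate 2, ethanol cohort A library 2 replicate 3, and MC903 or ethanol cohort B replicate 2. In the aGr1 group they were MC903 replicate 1, 2 or 4 and ethanol replicate 2. The Ccr2 call held without the 3 uninjected MC903 libraries of cohort A, uninjected ethanol cohort A library 1 replicate 3 or cohort B replicate 3, aGr1 MC903 replicate 2 or aGr1 ethanol replicate 3, each in turn, and was lost without any of the other 12 (edgeR adjusted p = 0.0544 to 0.0885).

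**Figure D3:**
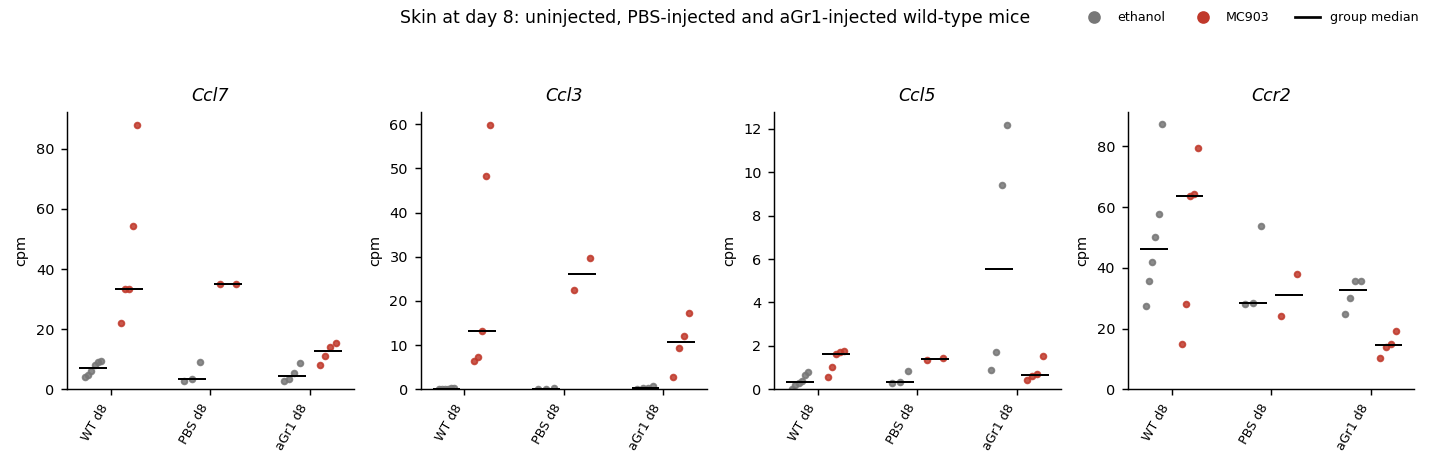
Level in cpm (linear axis from 0) of Ccl7, Ccl3, Ccl5 and Ccr2 in day 8 skin of uninjected, PBS-injected and aGr1-injected wild-type mice, 1 point per library with group medians as bars, grey for ethanol and red for MC903. In aGr1-injected mice the Ccl7 libraries with MC903 sit between 8.04 and 15.3 cpm, below every MC903 library of the other 2 injections, and 2 ethanol libraries hold the highest Ccl5.

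In TSLPR KO skin at day 8 Ccr1 alone passed the test, 1 of 8 members beside 2.45% of all genes, at 1.59 and 4.36 cpm with ethanol and 8.66, 14.7 and 16.6 cpm with MC903 (log2 fold change 2.19, SE 0.44, edgeR adjusted p = 0.0353). That call was lost without MC903 replicate 1 or 2 or ethanol replicate 2 (edgeR adjusted p = 0.0812 to 0.164), and without ethanol replicate 1 its log2 fold change was 3.02. Ccl2 was at 3.19 and 8.37 cpm with ethanol and 15.6, 20.2 and 67.7 cpm with MC903, and Ccl4 at 0.173 and 0.484 cpm and 0.584, 2.04 and 5.95 cpm, both apart (edgeR adjusted p = 0.0784 and 0.143). Ccl7 was at 7.45 and 35.7 cpm and 27.1, 38.1 and 179 cpm, with overlap. The single highest Ccl2 and Ccl7 values of all skin libraries, 67.7 and 179.3 cpm, were in this group, in mice whose Ccl3 (0.515, 0.775 and 2.28 cpm) stayed below every MC903 library of uninjected wild type at the same day. The Ccl3 effect was different from that in wild type by -5.40 on the log2 scale (SE 1.36), which did not pass the test over all genes (edgeR adjusted p = 0.134), and 0 members did by edgeR, with 3 at an unadjusted p under 0.05 (Ccl3, Ccl4 and Ccl5), beside 0.177% of all genes. Without wild-type MC903 cohort A replicate 2, 1 member passed, Ccl3. Monocyte and macrophage markers summed to 742 to 1114 cpm with ethanol and 1197 to 1670 cpm with MC903, 1 of 12 past the test, and neutrophil markers to 11.8 to 15.2 cpm with ethanol and to 33.5 cpm or more, with a median of 52.5 cpm, with MC903.

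At day 12, TSLPR KO skin had Ccl3, Ccl4 and Ccr1 higher and Ccr2 lower, 4 of 8 members beside 10% of all genes. Ccl3 was at 0.128, 0.135 and 0.479 cpm with ethanol and 1.73, 2.01, 3.89 and 6.42 cpm with MC903 (log2 fold change 3.71, SE 0.59, edgeR adjusted p = 0.00556), and Ccl4 at 0.17, 0.27 and 0.479 cpm and 1.77, 1.95, 3.86 and 6.74 cpm (log2 fold change 3.40, SE 0.55, edgeR adjusted p = 0.00605). Ccr1 was at 1.45, 1.71 and 2.82 cpm and 6.85, 8.46, 10.2 and 12.2 cpm (log2 fold change 2.08, SE 0.24, edgeR adjusted p = 0.00114). All 3 were without overlap, and the log2 fold change of Ccl3 was 4.34 without ethanol replicate 2. The Ccr2 ligands Ccl2 (2.79, 3.94 and 7.31 cpm against 3.17, 5.12, 5.36 and 8.66 cpm) and Ccl7 (2.7, 4 and 7.59 cpm against 4.29, 4.93, 5.28 and 12.9 cpm) overlapped and did not pass. Ccr2 was at 19.2, 27.5 and 37.9 cpm with ethanol and 12.7, 14.4, 21 and 22.9 cpm with MC903 (log2 fold change -0.84, SE 0.21, edgeR adjusted p = 0.0386), with overlap, and that call held without MC903 replicate 3 or ethanol replicate 3 and was lost without any of the other 5 libraries (edgeR adjusted p = 0.0612 to 0.124). No wild-type group of that day was used, so the genotypes were not compared there.

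In the trigeminal ganglion the members were low, and few moved. Over its 8 comparisons, 2 members passed the test, both in aGr1-injected mice and both lower with MC903, beside 1.88% of all genes. Ccl7 was at 0.533, 0.794, 0.81 and 1.22 cpm with ethanol and 0.128, 0.142, 0.158 and 0.203 cpm with MC903 (log2 fold change -2.35, SE 0.41, edgeR adjusted p = 0.0135), and Ccl12 at 0.627, 0.97, 1.43 and 1.62 cpm and 0.158, 0.243, 0.298 and 0.426 cpm (log2 fold change -1.99, SE 0.40, edgeR adjusted p = 0.0299). Neither gene overlapped between treatments. The MC903 libraries held 3 to 5 counts of Ccl7 and 3 to 9 of Ccl12, so these falls rest on few reads. The Ccl12 call was lost without MC903 replicate 4 or ethanol replicate 1 or 3 (edgeR adjusted p = 0.101 to 0.129). Adgre1, Fcgr1 and Ms4a7, 3 of the 12 monocyte and macrophage markers, were lower there as well, with a summed level of 144 to 168 cpm with ethanol and 78.4 to 156 cpm with MC903, and the fibroblast collagen gene Col1a1 was lower too (-1.19 on the log2 scale, edgeR adjusted p = 0.0019), from 69.3 to 103 cpm with ethanol to 28.8 to 48.3 cpm with MC903, while Dcn, the other fibroblast marker, did not pass (-0.33). The part of these markers was not tested. The difference from uninjected mice was -2.13 for Ccl7 (SE 0.53, edgeR adjusted p = 0.783), and 0 of 8 members passed that test by edgeR, beside 0% of all genes and 2 members at an unadjusted p under 0.05. In PBS-injected ganglion 0 members passed by edgeR, with 3 at an unadjusted p under 0.05 (Ccl2, Ccl7 and Ccr1) and 0 by DESeq2. Ccl7 there was at 0.0628, 0.186 and 0.445 cpm and 0.351, 0.388, 0.971 and 1.15 cpm (edgeR adjusted p = 0.244), beside 3.36% of all genes past the test, and Ccl2 passed without MC903 replicate 2, and Ccl7 and Ccr1 without MC903 replicate 4.

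In TSLPR KO ganglia at day 8, 1 of the 2 MC903 libraries (replicate 1) stood apart, with 19.03% of its reads on no feature and 13.19% ambiguous against 11.82% to 12.61% and 2.32% to 2.4% in the other 3 libraries. It held the keratinocyte keratin Krt5 at 43.97 cpm, the muscle gene Ckm at 10.6 cpm and the neutrophil gene Ngp at 19.6 cpm, where the other MC903 library had 0.129, 0.355 and 0.549 cpm. In that comparison, and in its difference from wild type, 0 members passed the edgeR test with this library or without it.

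Elsewhere in the ganglion 0 members passed the edgeR test, beside 0% of all genes at day 1 and day 2, 0.00823% at day 5, 0.160% at day 8, 0% in TSLPR KO mice at day 8 and 0.304% at day 12. At an unadjusted p under 0.05 there were 0, 0, 1, 2, 0 and 4 members, in the same order, and DESeq2 passed 1, Ccr2, at day 8 and 0 in the others. Ccr2 at day 8 was at 6.62, 8.19, 8.93, 9.05 and 14.1 cpm with ethanol and 2.37, 4.36, 5.59, 6.38 and 7.96 cpm with MC903, overlapping in a narrow range (edgeR adjusted p = 0.514). Ccl2 at day 5 was at 0.528, 0.958 and 1.05 cpm and 1.59, 2.29 and 2.43 cpm, apart, with an edgeR adjusted p of 1. A single MC903 library of day 1 (replicate 1) held the highest values of its group in Ccl2, Ccl7, Ccl12, Ccl5, Ccr1 and Ccr2 and had 0 counts of Ccl3 and Ccl4. In that MC903 group the muscle gene Ckm ran from 3.52 to 70.3 cpm (median 6.28), against 3.25 to 10.3 cpm with ethanol. The neuron marker Slc17a6 ran from 145 to 297 cpm (median 292), against 292 to 319 cpm with ethanol. The library behind these extremes is not named here, and their part was not tested. At day 2, leaving out ethanol replicate 2 let 4 members pass (Ccl2, Ccl7, Ccl5 and Ccr2), with 1 ethanol library left. The TSLPR KO and wild-type effects at day 8 differed for 0 members (0 at an unadjusted p under 0.05), beside 0% of all genes by edgeR.

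In the spinal cord 1 member, Ccl12, passed the test in uninjected mice (beside 12.2% of all genes) and in aGr1-injected mice (beside 11.3%), lower with MC903 in both. In uninjected mice it was at 0.0293, 0.0828, 0.347, 0.379 and 0.415 cpm with ethanol and 0, 0, 0.0198 and 0.0328 cpm with MC903, with overlap at the low end. Those are 37 counts over the 5 ethanol libraries and 2 over the 4 MC903 libraries, a ratio of 0.056 (95% exact interval 0.00654 to 0.217, counting error only). The fitted change (log2 fold change -3.89, SE 1.03, edgeR adjusted p = 0.0248) therefore depends on the prior count, and the call was lost without any of 6 of the 9 libraries (MC903 replicates 1, 2 and 4 and ethanol replicates 2, 3 and 4). In aGr1-injected mice Ccl12 was at 0.105 to 0.79 cpm with a median of 0.297 cpm with ethanol and 0 to 0.185 cpm with a median of 0.0697 cpm with MC903 (log2 fold change -2.49, SE 0.57, edgeR adjusted p = 0.00683), and that call held without each single library. The gene did not pass a stricter filter on low counts and got no adjusted p in DESeq2 in either comparison. In PBS-injected mice it was at 0.0684 and 0.104 cpm and 0.0783 and 0.155 cpm, and 0 members passed by edgeR, with 1 at an unadjusted p under 0.05 (Ccl3) and 0 by DESeq2, beside 0% of all genes. Ccl3 passed there without MC903 replicate 2. All 3 microglia markers (P2ry12, Tmem119 and Siglech) were lower in uninjected and aGr1-injected cord, with sums of 49.2 to 63.9 cpm against 19.1 to 31.1 cpm in uninjected cord and 44 to 52.6 cpm against 16.6 to 38.9 cpm in aGr1-injected cord. In uninjected cord the fibroblast genes Col1a1 (-2.31 on the log2 scale) and Dcn (-0.66) and the astrocyte gene Gfap (-0.37) were lower as well, and in aGr1-injected cord Gfap (-0.39) and the muscle gene Acta1 (-1.77). Ccl12 in the cord moved beside these markers, and their part was not tested. For the difference between these 2 effects, 0 of 8 members passed (edgeR, 0 at an unadjusted p under 0.05, beside 0.532% of all genes).

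**Figure D4:**
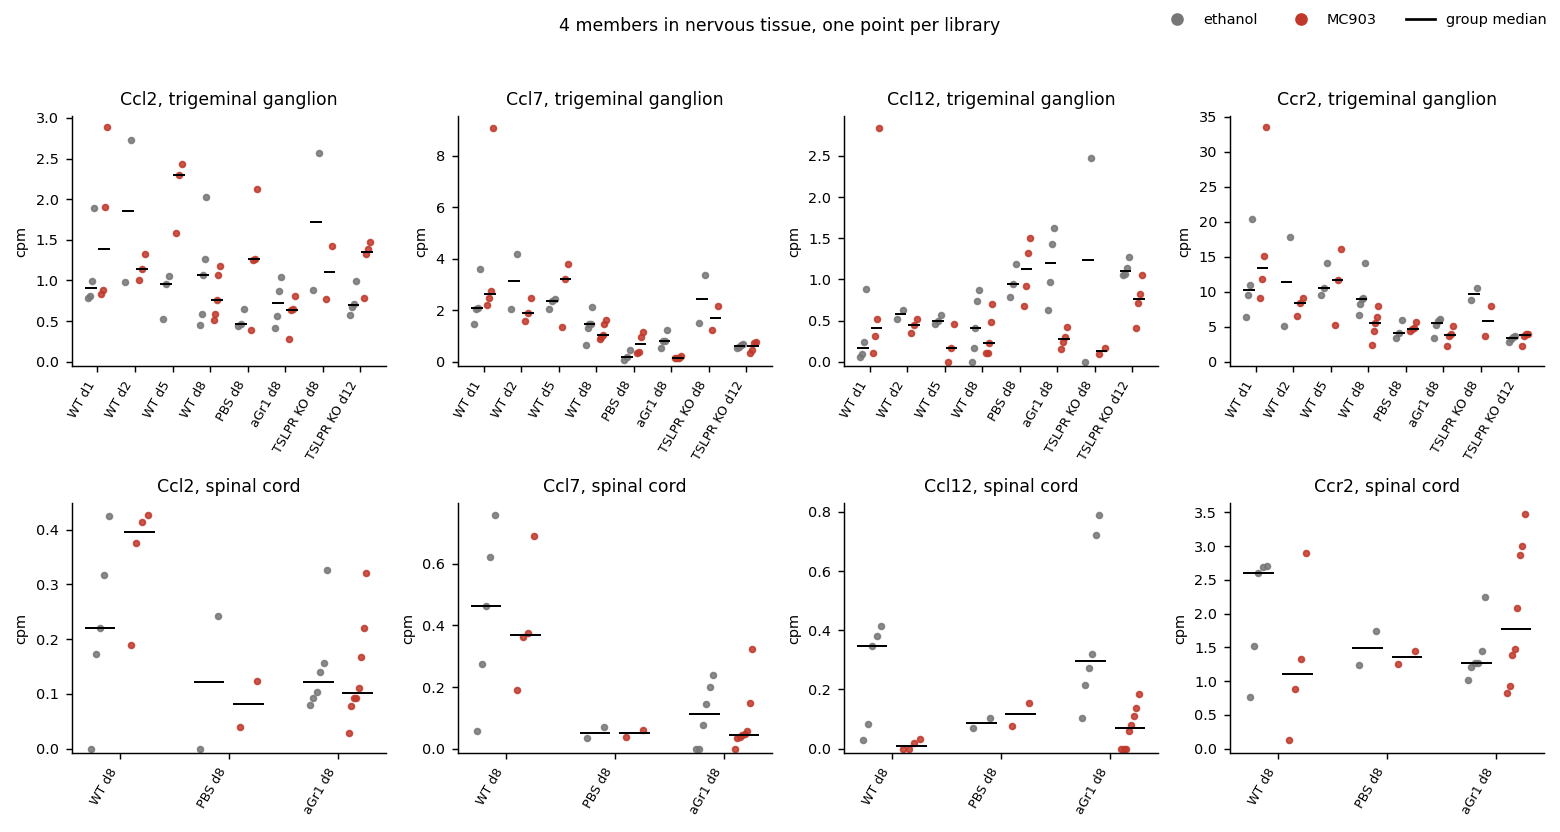
Level in cpm (linear axes, 1 point per library, bars for group medians) of Ccl2, Ccl7, Ccl12 and Ccr2 in trigeminal ganglion (top row, 8 conditions) and spinal cord (bottom row, 3 conditions), grey for ethanol and red for MC903. Ccl7 and Ccl12 with MC903 sit below ethanol in aGr1-injected ganglion, and Ccl12 with MC903 is at or under 0.185 cpm in the cord.

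Other genes of the pathway were read from 3 lists. The first holds 10 further ligands, receptors and decoys of the same system. In uninjected wild-type skin at day 8 it had 4 of 10 higher and 0 lower, beside 12.2% of all genes tested higher and 11.2% lower, with a median log2 fold change of 0.59 beside -0.03 over all genes tested. The members that rose were the chemokines Ccl6 (1.88 on the log2 scale), Ccl8 (1.21) and Ccl9 (1.69) and the atypical receptor Ccrl2 (1.46). In aGr1-injected skin 3 rose (Ccl6, Ccl8 and Ccl9) and 2 fell, the eosinophil attractant Ccl11 (-1.02) and the fractalkine receptor Cx3cr1 (-1.72), beside 15.1% of all genes higher and 17.5% lower. BLT1 KO skin had 3 higher (Ccl6, Ccl8 and Ccl9) and 4 lower (Ccl11, Ackr1, Ackr2 and Cx3cr1), PBS-injected skin 3 higher (the same chemokines) and 0 lower, TSLPR KO skin 0 and 0 at day 8 and 0 and 2 at day 12. Of all genes, 14.1% were higher and 14.6% lower in BLT1 KO skin, 3.26% and 0.721% in PBS-injected skin, and 1.31% and 1.14% at day 8 and 5.41% and 4.62% at day 12 in TSLPR KO skin. In the cord Cx3cr1 fell in uninjected (-1.56) and in aGr1-injected mice (-0.56), and its ligand Cx3cl1 fell in uninjected mice (-0.41), where 7.14% of all genes were lower (6.79% with aGr1).

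The second list holds 9 cytokines and feedback genes of NF-kB, a transcription factor known to drive many of these ligands. In wild-type skin at day 8 it had 8 of 9 higher, beside the 12.2% of all genes, with a median of 1.07 beside -0.03 over all genes tested, among them the cytokines Il1b (5.18 on the log2 scale) and Il6 (5.49) and the inhibitor Nfkbia (0.67). Tnf was the gene that did not pass (0.81, edgeR adjusted p = 0.193). At day 1 Nfkb2, Relb and Tnfaip3 were lower (3 of 8 tested, beside 7.47% of all genes), and at day 5 Il1a, Il1b and Il6 were higher (3 of 8 tested, beside 8.15%). Il1a and Il1b also passed as higher in each of the 5 other skin groups of day 8 and day 12, including TSLPR KO. The third list holds 8 signalling genes that act below chemokine receptors in leukocytes. At day 8 it had 5 of 8 higher (Gnai2, Pik3cg, Rac2, Vav1 and Rgs1), beside the 12.2% of all genes. The median was 0.69 beside -0.03 over all genes tested. At day 1 it had 4 lower and 0 higher, beside 7.47% lower and 5.51% higher. In aGr1-injected skin it had 1 higher, Rgs1 (1.61), and 1 lower, Grk2 (-0.56), beside 15.1% of all genes higher and 17.5% lower.

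Across the 61 skin libraries, pooled over treatments, the members fell into patterns, given as Pearson's r of log2(cpm + 0.5) with no test, since the libraries share treatments and groups. Ccl3 and Ccl4 ran together most closely (r = 0.98), and Ccl2 and Ccl7 had r = 0.84. Ccr2 had r = -0.22 with Ccl3 and 0.13 with Ccl2. Among 17640 other genes with a mean of at least 1 cpm, those most like Ccl3 were Osm (r = 0.97), Acod1 (r = 0.96) and Cxcl2 (r = 0.95), where Osm is a cytokine of myeloid cells and Cxcl2 a neutrophil attractant. The same 3 genes came first for Ccl4. Nearest to Ccr1 were Tfec (r = 0.96), Hdc (r = 0.95) and Nlrp3 (r = 0.94), where Hdc makes histamine and Nlrp3 is an inflammasome sensor. Ccl2 was nearest to Sdcbp (r = 0.83), Nlrp3 (r = 0.82) and Clec4n (r = 0.82), and Ccl7 to Sirpb1b (r = 0.88), Tnfaip6 (r = 0.87) and Crem (r = 0.87). Ccl12 was nearest to Ecscr (r = 0.89), Lair1 (r = 0.87) and Gm49339 (r = 0.87). Ccl5 was nearest to Trac (r = 0.83), Ms4a4b (r = 0.82) and Cd2 (r = 0.82), genes of T cells, and Ccr2 to Evi2a (r = 0.85), Cyld (r = 0.80) and Vgll3 (r = 0.80).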

How the data were processed

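RNA was extracted with RNAzol RT, and polyadenylated RNA was sequenced as single-end reads. Per the study's methods and the submitters' processing notes, the authors aligned reads to mm10 with TopHat and Bowtie2 and counted reads per gene with HTSeq, and they deposited 1 table of raw read counts per Ensembl gene for each library. The annotation release and the strand setting are not given in the sources used here. Tally lines that name no gene (6.15% to 21.54% of each library without a feature, 1.77% to 13.19% ambiguous) stayed out of library sizes and tests. Of 46078 gene identifiers, 45229 matched a symbol.

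MC903 and ethanol libraries of the same tissue, day, genotype and injection were compared in R 4.3.3 with the quasi-likelihood F test of edgeR 4.0.16, on TMM-normalised counts of genes with at least 10 counts over the libraries fitted, with a cohort term for uninjected wild-type skin and ganglion at day 8. P-values were adjusted by Benjamini-Hochberg over all genes tested, and the threshold was 0.1 for ganglion comparisons and 0.05 for all others. Standard errors are the absolute log2 fold change divided by the square root of F. There were 20 such comparisons and 7 tests of a difference between effects. The study's own differential test, an earlier DESeq version, was not run. Levels are cpm without TMM scaling, and they are counting estimates from 1 library each. A script checked the fits on simulated data.

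Alternatives were RLE normalisation, filterByExpr or no filter on low counts, the Wald test of DESeq2 1.42.0, a replicate block, each library left out, each cohort alone, no cohort term, 1 fit over days, and PBS-injected in place of uninjected mice. A crossed pairing of PBS-injected spinal cord was added after the data were seen. Whether shared replicate numbers pair libraries was checked from the correlation of deviations from group means. Every pair exceeded 0.1 for ganglia of uninjected wild type at day 5 (0.149 to 0.349) and of TSLPR KO mice at day 12 (0.178 to 0.531), where the block changed no call. Both pairs of wild-type skin at day 2 did as well (0.197 and 0.233), but they are fewer than the 3 pairs required. There and elsewhere a number was treated as a name.

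The 8 members were named in every comparison. Further genes came from lists of the pathway and of cell type markers, and the genes most like a member were the 3 with the highest Pearson's r over 61 skin libraries. Some genes of these lists are not reported here, and the counts, medians and sums are over the others. Members and lists were chosen with earlier results of these data known. Wild-type day 12 (18 libraries) was left out by the rule that defined the set.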

Additional observations from a re-analysis of the deposited data

Results flagged for a closer look

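Dixon's test for a single far library was applied to 159 sets of 4 to 10 libraries and marked 16, where chance marks about 1 in 20. In skin of day 1, MC903 replicate libraries reached 0.785 cpm of Ccl3 (the next was 0.131 cpm) and 1.2 cpm of Ccl4 (0.115 cpm), an ethanol library had the lowest Ccl3, at 0.0456 cpm (0.0869 cpm), and another ethanol library held 7.82 cpm of Ccl5 (1.08 cpm) with T and NK markers summing to 49.8 cpm. Every day 1 ethanol skin library was at or under 3 counts of Ccl3. In aGr1-injected ethanol skin Ccl12 was at 0.957 cpm in a library apart from the next at 2.81 cpm. In TSLPR KO skin of day 12 a MC903 library held 12.9 cpm of Ccl7 (5.28 cpm).

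In the trigeminal ganglion of day 1, MC903 libraries reached 2.84 cpm of Ccl12 (0.513 cpm), 9.08 cpm of Ccl7 (2.74 cpm) and 0.513 cpm of Ccl4 (0.0517 cpm), and an ethanol library had 0 cpm of Ccl4 (0.055 cpm). At day 8 a ganglion ethanol library held 1.16 cpm of Ccr1 (0.645 cpm). In aGr1-injected spinal cord an ethanol library held 0.326 cpm of Ccl2 (0.156 cpm) and another value apart was 2.24 cpm of Ccr2 with ethanol (1.44 cpm), while MC903 libraries reached 0.0878 cpm of Ccl4 (0.0402 cpm) and 0.324 cpm of Ccl7 (0.147 cpm). Those Ccl4 values stand for 2 counts and 1 count, under the limit taken as detectable. In uninjected cord an ethanol library held 0.998 cpm of Ccl4 (0.27 cpm).

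The effect of MC903 in skin at day 8 differed between aGr1-injected and uninjected mice for Ccl7 (-1.86 on the log2 scale), Ccl5 (-5.14) and Ccr2 (-1.57), and 0 of these differences passed by edgeR when PBS-injected mice were the reference.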

How the results depend on the processing

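Of 44 called member results, 25 kept their direction and their side of the threshold under every alternative that gave them a value and without each library, 23 of them with a value under all, and no value changed sign in 615 tries, of which 90 lost the call. Counts of members past the threshold moved by over 1.5 times as follows, the cause not tested except where fewer or more genes were tested. Wild-type skin at day 1 went from 2 to 0 in 1 fit over days. Day 2 went from 0 to 2 in DESeq2 and 1 in the fit over days, and day 5 from 3 to 5 with no filter and 6 in DESeq2. TSLPR KO skin at day 8 went from 1 to 5 with no filter and 4 in DESeq2. Ganglion at day 8 went from 0 to 1 with no filter and 1 in DESeq2, aGr1-injected ganglion from 2 to 1 in DESeq2, which gave Ccl7 no adjusted p, and PBS-injected ganglion from 0 to 2 with no filter. In uninjected and aGr1-injected spinal cord the count of 1 became 0 with filterByExpr, which drops Ccl12, and 0 in DESeq2, which gave it no adjusted p. The difference between day 8 and day 5 went from 0 to 1 with no filter. With PBS-injected mice as reference, the aGr1 differences went from 3 to 0 in skin and from 0 to 1 (Ccl7) in ganglion. With a replicate block, the count was 3 in wild-type skin at day 2, 5 at day 5, 6 in TSLPR KO skin at day 8, 1 in TSLPR KO skin at day 12, 3 in PBS-injected ganglion and 0 in uninjected cord, and Ccl5 in aGr1-injected skin lost its call (edgeR adjusted p = 0.0695). The numbers were not shown to pair these libraries. Crossing the pairs of PBS-injected cord gave 0. Leaving out 1 library at a time, the count ran from 1 to 4 in wild-type skin at day 1, 5 to 7 with aGr1, 2 to 7 with PBS, 0 to 2 in TSLPR KO skin at day 8, 0 to 4 in ganglion at day 2, 1 to 2 with aGr1 and 0 to 2 with PBS, 0 to 1 in uninjected cord and 0 to 1 in PBS-injected cord. For differences between effects it ran from 1 to 4 for aGr1 in skin, 0 to 1 for TSLPR KO, 0 to 1 for BLT1 KO and 0 to 3 between days. Where 1 library is left in an arm it is taken to vary like the other arm. Members at few counts, as in much of the cord, rest on few reads.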
